A study of Homo sapiens with 24 samples.

Results

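To determine what H3K4me3 looked like in TGFb-treated pancreatic cancer cells after PHF13 was depleted, the 4 H3K4me3 peak lists labelled siControl+TGFb and siPHF13+TGFb were compared, 4 of the 24 samples of the series. The cells were PANC-1, an established line from a human pancreatic ductal carcinoma. Both groups had been treated with TGFb at 10 ng/ml for 48 h after transfection of siRNA, either a non-targeting control (siControl) or siRNA against PHF13 (siPHF13), with 2 libraries in each group. Such siRNA gives a depletion and not a knockout, and nothing in the labels says whether the libraries of a group came from separate cultures, so the spread between them may be technical. Peaks that overlapped or touched were merged across the 4 lists into 42533 regions, and the base pairs (bp) that each library covered with peaks were recorded in every region. A region was called proximal if it held or lay within 5 kb of the transcription start site (TSS) of a protein-coding transcript of GENCODE on hg19, and distal otherwise.

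H3K4me3 is the trimethylated form of lysine 4 of histone H3. It is laid down by SET1 and MLL complexes, sits on the nucleosomes around active and poised promoters and is read by proteins with a PHD finger. PHF13 is such a reader, and TGFb drives epithelial cells towards a mesenchymal state through SMAD proteins. The peak lists give where the mark passed the threshold of the peak caller and how far it spread along the DNA, but no read counts, so the depth behind a value is unknown.

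Each peak carries a name, and these names went against the labels. Peaks labelled as siPHF13+TGFb were named NCT, by which the study abbreviates siControl+TGFb, whereas peaks labelled as siControl+TGFb were named 3AT. The grouping follows the labels, and if the lists had been exchanged every direction given here would reverse. The H3K27ac and H3K27me3 lists of the same conditions carry the same names as the H3K4me3 lists. The lists held 39202 and 36308 peaks in siControl+TGFb and 27869 and 33491 in siPHF13+TGFb, in the order of the replicates. siPHF13+TGFb replicate 1 stood apart. Its median peak was 773 bp wide against 899 to 922 bp in the other 3 libraries, and its base pairs overlapped theirs with a Jaccard index of 0.583 to 0.671 against 0.759 to 0.786 among the others. The H3K27ac list with the same group and replicate number, a separate sample not stated to share a culture with it, touched 17.96% of the proximal regions against 60.8% to 71.3% in the other 3 H3K27ac lists of these conditions. The main results are therefore also given without the H3K4me3 list of siPHF13+TGFb replicate 1. Of 8 markers of ductal epithelium, 7 had peaks within 5 kb of a TSS in all 4 libraries, and the exception was KRT7, with 208 bp in siControl+TGFb replicate 1 alone. Of 18 markers of other cell types found in the annotation, 11 had no peak there in any of the 4, and 3 (CD14, ITGAM and APOA1) had peaks in all 4.

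The DNA under the regions on which the results turn is shown to give their base composition. Each is the 200 bp around the strongest peak summit of the named region, read from the plus strand of GRCh37 (hg19) and named by the nearest coding gene. Capitals mark the letters TGANTCA, N being any base, where they occur. This pattern is looser than the element of AP-1 factors, which has C or G at N. The MSX1 stretch has C there and the HHAT stretch has A. The first set holds the 3 longest distal regions that had peaks in both siControl+TGFb libraries and in neither siPHF13+TGFb library.
IRF2BPL, intergenic, chr14:77422524-77422723: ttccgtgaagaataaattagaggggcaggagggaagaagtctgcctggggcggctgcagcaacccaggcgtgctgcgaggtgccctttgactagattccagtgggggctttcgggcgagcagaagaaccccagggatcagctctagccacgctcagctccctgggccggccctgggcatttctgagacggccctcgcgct
GATAD2A, intron, chr19:19599884-19600083: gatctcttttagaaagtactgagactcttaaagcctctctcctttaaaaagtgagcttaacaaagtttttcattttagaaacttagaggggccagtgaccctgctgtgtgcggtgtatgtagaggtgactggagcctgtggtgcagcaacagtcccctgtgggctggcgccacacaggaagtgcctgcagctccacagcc
MSX1, intergenic, chr4:4871765-4871964: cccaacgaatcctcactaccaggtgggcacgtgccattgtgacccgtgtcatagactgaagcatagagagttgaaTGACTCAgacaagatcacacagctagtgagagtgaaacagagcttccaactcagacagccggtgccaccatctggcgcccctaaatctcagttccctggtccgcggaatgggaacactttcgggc
The next set holds the 3 longest such regions near a coding TSS.
BSND, upstream of the gene, chr1:55462624-55462823: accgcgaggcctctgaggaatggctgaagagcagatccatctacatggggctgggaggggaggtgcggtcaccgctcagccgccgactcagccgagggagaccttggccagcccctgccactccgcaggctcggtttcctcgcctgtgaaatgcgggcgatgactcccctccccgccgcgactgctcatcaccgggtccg
HHAT, intron, chr1:210547259-210547458: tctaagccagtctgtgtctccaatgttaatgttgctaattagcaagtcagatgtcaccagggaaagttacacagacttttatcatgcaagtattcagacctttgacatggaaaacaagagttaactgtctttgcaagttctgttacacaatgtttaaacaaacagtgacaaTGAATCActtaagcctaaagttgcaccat
NABP1, intron, chr2:192545533-192545732: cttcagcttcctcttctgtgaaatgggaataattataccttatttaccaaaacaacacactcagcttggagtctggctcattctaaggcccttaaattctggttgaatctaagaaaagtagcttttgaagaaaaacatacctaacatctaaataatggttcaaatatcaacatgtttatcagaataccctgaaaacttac
The last set holds the 2 regions with the widest gap between the nearest libraries of the groups, among those present everywhere and narrower in siPHF13+TGFb, and the longest region found in siPHF13+TGFb alone.
LRRC74A, intergenic, chr14:77386213-77386412: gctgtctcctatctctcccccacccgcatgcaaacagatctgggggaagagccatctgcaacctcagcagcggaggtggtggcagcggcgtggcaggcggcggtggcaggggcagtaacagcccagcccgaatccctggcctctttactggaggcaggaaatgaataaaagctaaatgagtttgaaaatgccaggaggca
HEG1, exon of a long noncoding RNA, chr3:124781680-124781879: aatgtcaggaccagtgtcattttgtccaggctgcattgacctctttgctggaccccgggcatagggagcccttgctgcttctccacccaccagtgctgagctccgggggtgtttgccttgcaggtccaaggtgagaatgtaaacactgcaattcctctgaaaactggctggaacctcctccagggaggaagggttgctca
ACTN2, intron, chr1:236878002-236878201: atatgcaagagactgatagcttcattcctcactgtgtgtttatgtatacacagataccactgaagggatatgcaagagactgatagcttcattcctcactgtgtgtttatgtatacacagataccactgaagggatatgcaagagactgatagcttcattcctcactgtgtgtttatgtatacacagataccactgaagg
The upstream BSND window held 17 CpG dinucleotides and the distal IRF2BPL window 11, whereas the HHAT and NABP1 windows held 0 CpG at a GC content of 37% and 34%. The ACTN2 window held 0 CpG and repeats the same stretch of letters along its length.

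The total length of DNA under H3K4me3 was shorter in both siPHF13+TGFb libraries. It was 41.1 and 37.4 Mb in siControl+TGFb and 24.9 and 34.9 Mb in siPHF13+TGFb, so the groups did not overlap. The means were 39.3 Mb ± 2.60 (SD, n = 2) and 29.9 Mb ± 7.102 (SD, n = 2), a difference of -0.41 on the log2 scale with an exact two-sided permutation p of 0.333, the smallest that 2 against 2 libraries can give. Without siPHF13+TGFb replicate 1 it was -0.17.

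Most regions held a peak in every library. Of the 42533 merged regions, 22665 were present in all 4 libraries, and 15421 of those were proximal. A further 5152 were present in 3 libraries and absent from siPHF13+TGFb replicate 1, while 176 were absent only from siPHF13+TGFb replicate 2. The plot of library combinations shows that regions missing from 1 or more libraries were mostly distal.

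**Figure D1:**
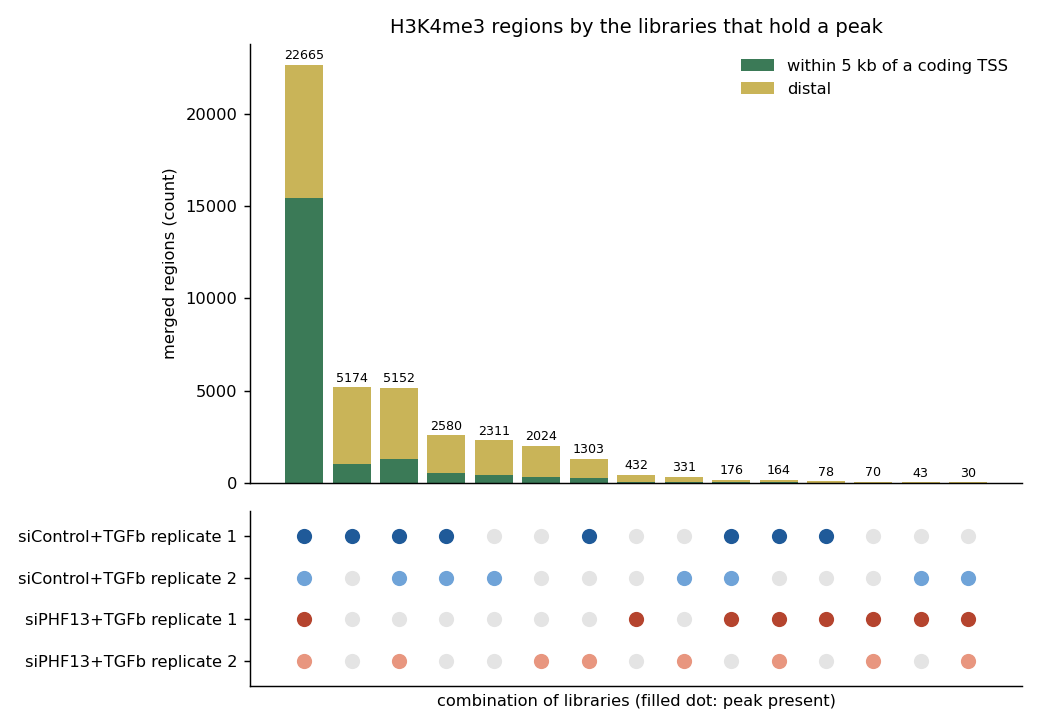
Merged H3K4me3 regions (count, upper axis) for each combination of libraries that held a peak (filled dots below), split into regions within 5 kb of a coding TSS and distal regions. The 22665 regions of all 4 libraries are mostly proximal (15421), and the 2580 of both siControl+TGFb libraries alone are mostly distal (2039).

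Regions with a peak in both siControl+TGFb libraries and in neither siPHF13+TGFb library, here called lost, numbered 2580, which is 6.07% of all regions. Regions with the reverse pattern, here called gained, numbered 70, or 0.165%. The net of 2510 lost regions had an exact permutation p of 0.333 over the libraries, again the smallest possible. When the pairs were mixed across the groups, 1303 regions were private to siControl+TGFb replicate 1 with siPHF13+TGFb replicate 2 and 43 to the other pair, and the other mixing gave 78 and 331. Without siPHF13+TGFb replicate 1, 2767 regions were lost and 2107 gained. The balance also depended on how the lists were made comparable. With all 4 lists reduced to the same number of strongest peaks, 786 regions were lost and 277 gained. A mixed pair then had 673, and the net had an exact permutation p of 0.667. With the lists reduced to the same covered length, 29 were lost and 944 gained, so that the direction turned. Both reductions kept the list of siPHF13+TGFb replicate 1 whole, as the shortest, and cut the others to their strongest peaks. How far these counts follow from that rule was not tested.

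**Figure D2:**
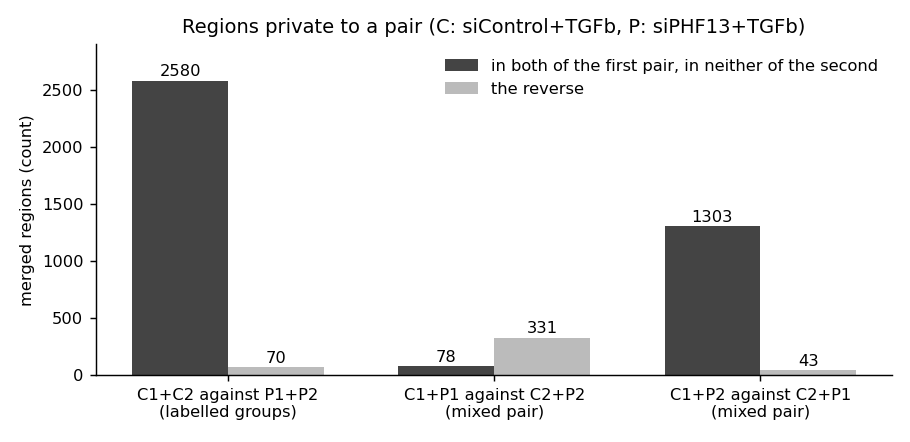
Merged H3K4me3 regions (count) present in both libraries of one pair and in neither of the other, for the labelled groups and for both ways of mixing them (C1 and C2, siControl+TGFb replicates; P1 and P2, siPHF13+TGFb replicates). The labelled groups give 2580 against 70, and mixing C1 with P2 gives 1303 against 43.

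Lost regions lay mostly away from promoters, as did other regions missing from some libraries. Of the 2580, 541 (21.0%) were proximal, against 45.9% of all merged regions and 68.0% of those in all 4 libraries. The share was about as low among gained regions, with 14 of 70 (20%) proximal. Of the 1303 regions private to siControl+TGFb replicate 1 with siPHF13+TGFb replicate 2, 277 were proximal. A low share was thus not particular to lost regions. Only 118 held a coding TSS, 717 lay in introns outside the other classes and 969 between genes. Put as rates, 0.856% of the regions that held a coding TSS were lost, 7.36% of those within 5 kb of one, 6.75% of distal regions within 5 kb of the TSS of a long noncoding RNA, 9.75% of distal intronic regions and 9.24% of intergenic regions. The proximal share of the lost regions was 21.0% without siPHF13+TGFb replicate 1 and 24.9% without replicate 2. Taking only the 50% strongest peaks of each list, it was 39.5%, among regions that were more often proximal as a whole, and the distance from the share of all regions was -31.0 percentage points against -25.0 with all peaks.

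Lost regions were weak peaks in the cells that had them. Ranked by the authors' −log10 q, their best peak stood at a median percentile of 21.8 in siControl+TGFb replicate 1 and of 16.0 in replicate 2, while regions present in all 4 libraries stood at 70.4 and 68.0. They covered a median of 393 and 307 bp, against 1487 and 1422 bp. Only 10 lost regions stood above the median rank of both lists, and 1 of these was proximal. In the TGFb-untreated siControl cells, 13.8% of the lost regions had a peak in replicate 1 and 54.3% in replicate 2, 276 had one in both and 1098 in neither. By comparison, 98.1% and 99.9% of proximal regions present in all 4 libraries had a peak in the untreated replicates, 90.3% and 99.2% of such distal regions, and 40.05% and 62.9% of all distal regions.

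The DNA of proximal lost regions was poorer in CpG, and that of distal ones less clearly so. In the 200 bp around the summit, proximal lost regions had a median of 5 CpG dinucleotides against 10 in proximal regions of all 4 libraries. Distal lost regions had 3 against 6. In all regions with peaks in both siControl+TGFb libraries the median was 10 at proximal and 4 at distal regions. The letters TGANTCA, which read the same on both strands, were in 11.4% of the 2039 distal lost windows, in 7.03% of distal windows of regions in all 4 libraries and in 8.90% of all distal regions with peaks in both siControl+TGFb libraries. GGAATG, the element of TEAD factors read on both strands, was in 13.1%, 13.03% and 13.1% of the same windows. In proximal windows TGANTCA was in 8.13% of the lost, 2.84% of the regions in all 4 libraries and 3.27% of those in both siControl+TGFb libraries, and GGAATG in 12.01%, 9.36% and 9.53%. H3K27ac peaks lay on 50.2% and 33.7% of the distal lost regions in siControl+TGFb and on 3.68% and 40.9% in siPHF13+TGFb. Over all distal regions the same 4 shares were 49.8%, 34.4%, 6.88% and 45.5%, close to those of the lost ones.

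The lost proximal regions, ranked by their mean bp in siControl+TGFb, were led by those at BSND, HHAT, NABP1, SSH1 and WWC1. BSND encodes barttin, a subunit of chloride channels. Its lost region, chr1:55461706-55463251, ends 1355 bp before the TSS and covered 1198 and 1021 bp in siControl+TGFb and 0 bp in both siPHF13+TGFb libraries. The untreated siControl cells had 148 and 731 bp there. HHAT, which acylates Hedgehog ligands, lost an intronic region of 1257 and 918 bp at chr1:210546695-210548024, and neither untreated library had it. At SSH1, a cofilin phosphatase, the region chr12:109219091-109220268 held the TSS of an internal transcript and covered 957 and 1178 bp against 0 and 0 bp. SSH1 as a whole kept 1729 and 2160 bp around its other start sites in siPHF13+TGFb, against 3600 and 3463 bp in siControl+TGFb, so the loss concerned 1 of its promoters.

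RSAD2, an interferon-induced antiviral enzyme, lost a region over a coding TSS with 1040 and 871 bp in siControl+TGFb, at chr2:7017188-7018227. NRXN2, a synaptic adhesion protein, lost 1172 and 793 bp at chr11:64410420-64411591, also over a TSS. The amino acid transporter gene SLC38A5 lost 977 and 961 bp at chrX:48326157-48327142. The remaining 4 of the 10 longest were NABP1, WWC1, VGLL4 and RAC2. Of these NABP1 codes for a single-stranded DNA-binding protein, WWC1 for the Hippo pathway protein KIBRA, VGLL4 for a cofactor of TEAD factors and RAC2 for a small GTPase of blood cells, and their regions covered between 824 and 1140 bp in the siControl+TGFb libraries. All 10 were at 0 bp in both siPHF13+TGFb libraries, which is what placed them in the list.

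Among distal regions, the longest lay 71597 bp from the TSS of IRF2BPL, within 5 kb of the TSS of a long noncoding RNA, at chr14:77422043-77423454. It covered 1412 and 1357 bp in siControl+TGFb, 0 bp in both siPHF13+TGFb libraries and 446 and 514 bp in untreated cells. H3K27ac peaks lay on it in all 4 TGFb-treated H3K27ac libraries. A region in an intron of GATAD2A, a subunit of the NuRD complex, covered 1585 and 926 bp at chr19:19599512-19601311. Near MSX1, a homeobox gene, the siControl+TGFb libraries differed from each other with 1829 and 558 bp. The other 7 lay in introns of DLGAP1, BPGM, GRHL2 and GLI2, over an exon of PGF, inside the noncoding gene PVT1 downstream of MYC, and 121056 bp from KLF6. GRHL2 keeps epithelial genes on and GLI2 is a transcription factor of Hedgehog signalling. The GRHL2 region covered 1241 and 944 bp and the GLI2 region 1244 and 851 bp in siControl+TGFb. In untreated cells the GRHL2 region covered 467 and 1162 bp and the GLI2 region 0 and 401 bp. Within 5 kb of its TSSs, GRHL2 had 0 bp in all 4 libraries and in the untreated ones.

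**Figure D3:**
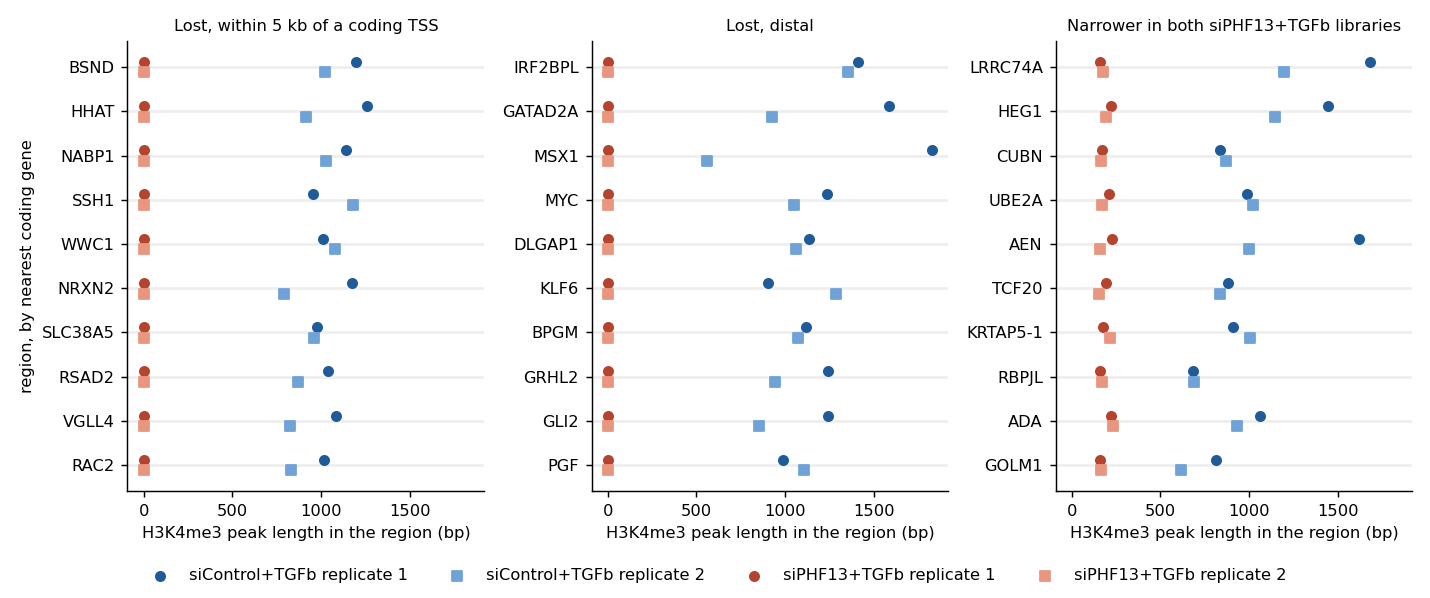
H3K4me3 peak length (bp) in each library for the 10 longest lost proximal regions, the 10 longest lost distal regions and the 10 regions with the largest gap between the groups among those present everywhere, each named by its nearest coding gene. The siPHF13+TGFb points are at 0 bp in the first 2 panels, by which those regions were chosen, and between 154 and 231 bp in the last.

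The gained regions were short and often near unsequenced parts of the genome. They covered a median of 176 and 220.5 bp in siPHF13+TGFb, and 26 of the 70 (37.1%) lay within 5 Mb of a gap of at least 1 Mb in the assembly, where satellite DNA abounds, against 9.70% of all regions and 5.66% of lost regions. The longest was in an intron of ACTN2, which encodes a sarcomeric actinin, with 540 and 1153 bp. Of the 10 longest, 6 lay near such a gap. Peaks in repeats can take reads from several copies, so their lengths are uncertain.

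Seen by gene, few coding genes carried the mark in one group alone. Of 19820 coding genes, 15261 and 15063 had H3K4me3 within 5 kb of a TSS in siControl+TGFb and 14523 and 14986 in siPHF13+TGFb. By the presence rule 126 genes (0.636%) were lost and 1 (0.00505%) was gained, MTRNR2L6, with 170 and 208 bp. Without siPHF13+TGFb replicate 1, 142 were lost and 42 gained, without siControl+TGFb replicate 2 and without siPHF13+TGFb replicate 2 311 and 505 were lost, and with lists of the same covered length 8 were lost and 428 gained. Only 26 of the 126 lost genes had a peak directly over a TSS in both siControl+TGFb libraries. In untreated cells 16 of them had peaks in both libraries and 46 in neither.

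The 8 lost genes with the most bp, named after their values were seen, were BSND, RAC2, TNFSF13B, CFB, CALB1, CSF2, GRM3 and CD74. TNFSF13B, the B-cell survival factor BAFF, had 1040 and 801 bp in siControl+TGFb, with a peak over its TSS in both. CFB, complement factor B, had 1013 and 764 bp, and CSF2, the cytokine GM-CSF, had 866 and 855 bp. CD74, the invariant chain of MHC class II, had 1022 and 689 bp. GRM3, a glutamate receptor, was the least even of them with 1317 and 398 bp, and CALB1, a calcium-binding protein, had 1057 and 670 bp. In the untreated cells, RAC2 had 0 bp in both libraries, CFB, CALB1, CSF2, GRM3 and CD74 had peaks in replicate 2 alone, and BSND and TNFSF13B had peaks in both. PHF13 itself, whose mRNA the siRNA targets, kept its promoter mark, with 3018 and 3084 bp in siControl+TGFb and 2205 and 3018 bp in siPHF13+TGFb. H3K4me3 at the gene does not measure how far the mRNA was depleted.

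Regions present in all libraries were narrower in the siPHF13+TGFb libraries. Their median width was 1487 and 1422 bp in siControl+TGFb and 1062 and 1355 bp in siPHF13+TGFb. The median change over the 22665 regions was -0.24 on the log2 scale, with an exact permutation p of 0.333. Against the 2 siControl+TGFb libraries, siPHF13+TGFb replicate 1 gave -0.43 and -0.37 and replicate 2 gave -0.11 and -0.063. Without replicate 1, the lower of the pair, the median change was -0.10. The siPHF13+TGFb replicates differed from each other by -0.30, more than the group difference.

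Both siPHF13+TGFb libraries were narrower than both siControl+TGFb libraries in 12617 regions, 55.7% of those in all 4, and wider in 194, or 0.856%. By limma's moderated test with Benjamini-Hochberg adjustment no region passed an adjusted p of 0.05 in either direction (0 of 22665, 0%), and the lowest adjusted p was 0.542. At an unadjusted p under 0.05, 1425 regions (6.29%) were narrower and 15 (0.0662%) wider. After each library was centred on its own median width, which removes the shift of the whole list, 3907 regions were narrower and 5471 wider without overlap, and the median change was 0.033. Centring sets the balance between both directions by construction. Without siPHF13+TGFb replicate 2, whose removal leaves replicate 1 as the only depleted library and assumes that it varies like the controls, limma called 6365 regions narrower and 13 wider.

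The median width difference was larger at distal than at proximal regions. Distal regions had median widths of 1049 and 971 bp in siControl+TGFb and 533 and 893.5 bp in siPHF13+TGFb, and proximal regions 1726 and 1671 bp against 1331 and 1606 bp. The median log2 change was -0.41 at distal and -0.21 at proximal regions, a difference of -0.20 with an exact permutation p of 0.333. The difference was below 0 in all 4 pairs of a siPHF13+TGFb with a siControl+TGFb library, from -0.39 to -0.010. Without siPHF13+TGFb replicate 1 it was -0.071, and with lists of the same covered length or the 50% strongest peaks it was -0.034 and -0.018. The share of regions narrower without overlap, in contrast, was 52.3% at distal and 57.2% at proximal regions, lower at distal regions.

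Sorting the regions by their width in untreated siControl cells, which took no part in the comparison, set narrow against broad regions. The narrowest 20%, at up to 759 bp, had a median log2 change of -0.48, from 786 and 710 bp in siControl+TGFb to 363 and 661 bp in siPHF13+TGFb. The broadest 5%, over 2411 bp, had -0.18, from 2850.5 and 2756.5 bp to 2266 and 2706.5 bp. In absolute terms the difference was larger at the broad regions, with a median of -317 bp against -188.5 bp, as the plot of width classes shows. With replicate 1 of siPHF13+TGFb left out, the log2 change was -0.11 in the narrowest and -0.045 in the broadest class, and in bp it was -57 and -89.2. Regions with several peaks were also more frequent in the library that stood apart: 16.4% of the regions were held by more than 1 peak in siPHF13+TGFb replicate 1, against 5.95% to 10.1% in the other 3 libraries.

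**Figure D4:**
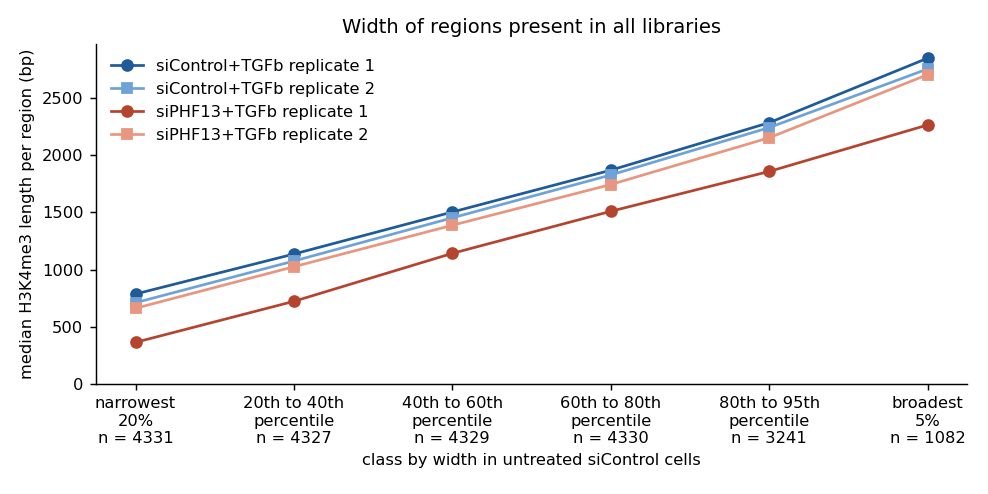
Median H3K4me3 length per region (bp) in each library, for regions sorted by their width in untreated siControl cells. siPHF13+TGFb replicate 1 lies below the other 3 libraries in every class, and replicate 2 lies below both siControl+TGFb libraries by a smaller margin.

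Regions were also sorted by their chromatin state in untreated cells. Proximal regions with H3K27ac in both untreated libraries and no H3K27me3, the state of active promoters, had a loss rate of 0.853% and a median width change of -0.19. Those with H3K27me3 in both and no H3K27ac, the state of Polycomb-bound promoters, had 2.54% and -0.33, from 1413 and 1327 bp in siControl+TGFb to 928 and 1270 bp. Proximal regions with neither mark had the highest loss rate, 7.596%. At distal regions the loss rates were 7.20%, 7.36% and 10.2% for the same 3 states. The 773 distal regions with both marks changed less, with a loss rate of 0.647%. Over the 497 of them present in all 4 libraries, the median width change was -0.041 and 12.3% were narrower. Those 497 were short, at a median of 415 and 383 bp in siControl+TGFb and 314 and 478 bp in siPHF13+TGFb. Whether they lay near assembly gaps was not tested. The median width changes without siPHF13+TGFb replicate 1 were -0.078 for the active and -0.093 for the Polycomb-bound proximal regions and 0.070 for the distal regions with both marks, and the proximal loss rates of the 3 states were 0.896%, 2.84% and 8.05%. These classes differ in width and peak strength too, and the part of those in the difference was not tested.

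Promoter regions were shorter on both sides of the start site. In 9198 regions that held the TSSs of a single coding gene, the mark extended a median of 587 and 561 bp upstream in siControl+TGFb and 389 and 537 bp in siPHF13+TGFb. Downstream, over the first part of the gene body, it extended 1113 and 1091 bp against 913 and 1036 bp. The median change was -81.5 bp upstream and -121.5 bp downstream, each with an exact permutation p of 0.333. Downstream minus upstream, the difference was -40.0 bp (exact permutation p = 0.333), below 0 in all 4 pairs of libraries. The changes without siPHF13+TGFb replicate 1 were -23.5 bp upstream and -54 bp downstream. As a share of the siControl+TGFb length the order was the other way, at -14.2% upstream against -11.0% downstream.

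Of the 10 regions with the largest gap in width between the groups, 7 were distal. The largest gap between the groups was at a region 91864 bp from LRRC74A, close to the lost region near IRF2BPL on chromosome 14, at chr14:77384703-77386383. It covered 1681 and 1197 bp in siControl+TGFb and 158 and 176 bp in siPHF13+TGFb. A region 6424 bp upstream of HEG1, which encodes a receptor of endothelial junctions, went from 1444 and 1144 bp to 222 and 193 bp at chr3:124781265-124782811. Intronic regions of CUBN, the receptor for intrinsic factor and vitamin B12, and of ADA, adenosine deaminase, went from 833 and 868 bp to 172 and 163 bp and from 1059 and 934 bp to 221 and 231 bp. At RBPJL, a transcription factor of pancreatic acinar cells, the region inside the gene went from 681 and 689 bp to 159 and 168 bp. The other 5 of the 10 lay near UBE2A, AEN, TCF20, KRTAP5-1 and GOLM1 and covered 615 to 1620 bp in siControl+TGFb and 154 to 226 bp in siPHF13+TGFb. In siPHF13+TGFb the best peaks of the 10 ranked at percentiles of 0.997 to 31.1 by −log10 q, and in siControl+TGFb at 16.0 to 45.0. The gaps thus rest on short and weak peaks. None of the 10 passed limma's adjusted threshold (adjusted p = 0.542 for each).

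Wider regions were few and small. The largest change was at IGF2BP3, an RNA-binding protein, where a region 166 bp from the TSS covered 221 and 157 bp in siControl+TGFb and 528 and 546 bp in siPHF13+TGFb. At a region 13727 bp from NARF the values were 157 and 170 bp against 330 and 336 bp. Of the 194 wider regions, 42 (21.6%) lay within 5 Mb of a long assembly gap, as against 7.08% of the narrower ones. Among the 10 with the largest gap between the groups, these were the regions nearest to ALG10B, OR4C46, RP11-685N3.1, EMB and FAM72B.

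To see how the widths differed by pathway, 17 lists of genes were described by their bp within 5 kb of TSSs. Over the 14483 coding genes with peaks in all 4 libraries the median log2 change was -0.22, with 9023 (62.3%) narrower without overlap and 44 (0.304%) wider. No list held a wider member. The narrower shares of the lists ran from 20.8% for mesenchymal and matrix genes to 77.8% for DNA damage response genes, against that 62.3%. The medians of the lists ran from -0.18 for mitosis and replication genes to -0.47 for transcription factors of the epithelial-to-mesenchymal transition (EMT). The plot of gene lists shows that the pairs with siPHF13+TGFb replicate 1 gave the lower values. Without it, the medians ran from -0.19 to 0.029, and those of HOX genes and pancreatic lineage factors were above 0.

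**Figure D5:**
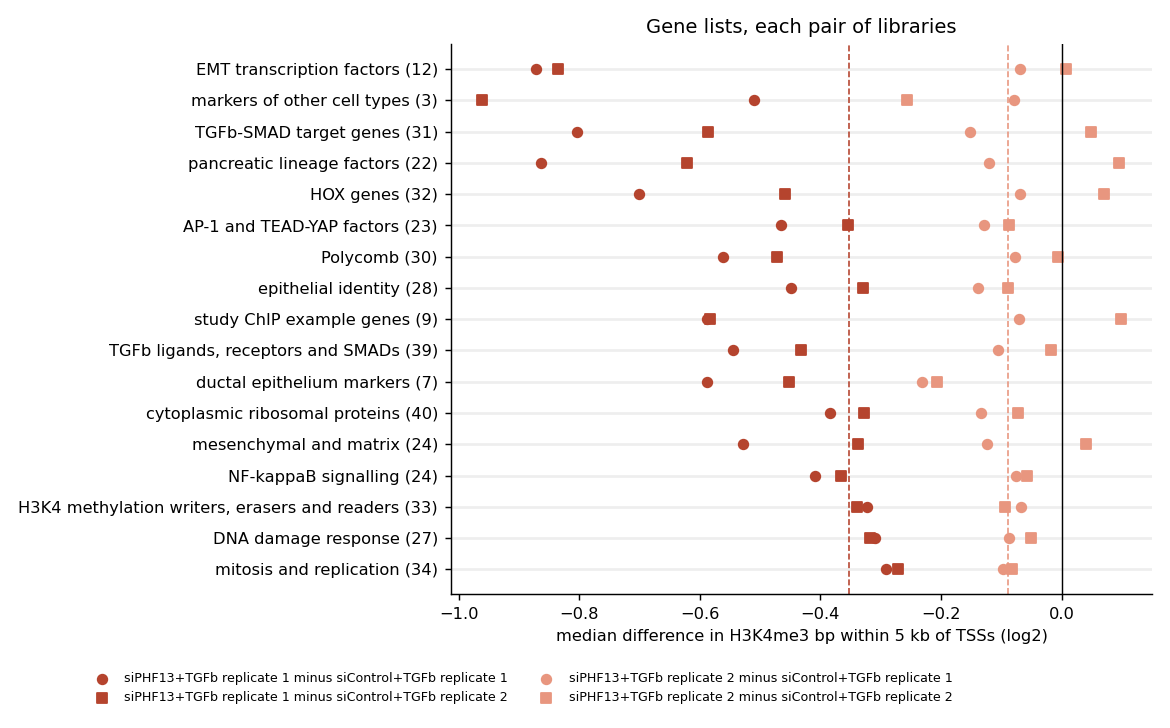
Median log2 difference in H3K4me3 bp within 5 kb of TSSs for each gene list (number of genes with peaks in all 4 libraries in brackets), for each pair of a siPHF13+TGFb and a siControl+TGFb library. Dashed lines are the values over all coding genes with peaks in all 4 libraries, averaged over the pairs of each siPHF13+TGFb library, and the pairs with siPHF13+TGFb replicate 2 lie near 0, between -0.26 and 0.10.

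Genes of the TGFb pathway carried the mark throughout. All 39 genes of ligands, receptors, SMADs and their regulators had peaks in all 4 libraries. Of these 19 (48.7%, against 62.3% of all genes) were narrower without overlap, and the median was -0.26. BMP4, a ligand of the family, had 2231 and 1688 bp in siControl+TGFb against 729 and 1661 bp. TGIF1, a corepressor of SMAD signalling, had the largest change of the list, from 3639 and 2116 bp to 251 and 3411 bp, and the second siPHF13+TGFb library was within the control range, so the log2 difference of -1.58 rests on the other one. With lists of the same number of peaks the differences of TGIF1 and BMP4 were -0.11 and -0.12, against -1.58 and -0.82 with all peaks. Of 32 TGFb-SMAD target genes 31 had peaks in all 4 libraries and 10 were narrower (32.3%, median -0.34). MMP9, a matrix protease, led them with 862 and 594 bp against 54 and 768 bp, where again only siPHF13+TGFb replicate 1 was low.

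Of 14 EMT transcription factors, 12 had peaks in all 4 libraries and the median was -0.47. Of these 5 were narrower, or 41.7%, below the 62.3% of all genes. TCF4, an E-protein that represses CDH1, had 2182 and 1527 bp in siControl+TGFb and 569 and 1221 bp in siPHF13+TGFb, without overlap. GSC, the goosecoid homeobox factor, had 1824 and 1763 bp against 562 and 1793 bp, with overlap. The median of the list was -0.075 without siPHF13+TGFb replicate 1. Epithelial identity genes had 17 of 28 narrower (median -0.28). ELF3, an epithelial ETS factor, had the largest change of the list, from 956 and 738 bp to 172 and 629 bp, without overlap. The splicing regulator ESRP1 came next, from 2959 and 1974 bp to 641 and 2036 bp, with overlap. Of the 24 mesenchymal and matrix genes with peaks in all 4 libraries 5 were narrower (median -0.21), or 20.8%. COL5A1, a fibrillar collagen, had 1732 and 1117 bp against 486 and 1189 bp.

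AP-1 and TEAD-YAP factors had 16 of 23 narrower (median -0.29). JUNB had 3525 and 2722 bp against 1168 and 2384 bp, and VGLL4, already named for its lost region, had 11771 and 10130 bp against 4661 and 8323 bp. ANKRD1, a target of YAP, was lost, with 320 and 292 bp in siControl+TGFb.

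Genes that read, write or erase H3K4 methylation had 22 of 33 narrower (median -0.21), and their largest changes were at ING2, from 2950 and 2478 bp to 982 and 3069 bp, and at ING1, from 3381 and 3134 bp to 1460 and 3265 bp, both PHD-finger readers. In the second siPHF13+TGFb library ING1 was within the control range and ING2 above it. Polycomb genes had 15 of 30 narrower (median -0.28), among them RBBP7 with 2416 and 1811 bp against 969 and 1715 bp, while PCGF2 had 4881 and 3005 bp against 1727 and 3241 bp. HOX genes had 9 of 32 narrower, or 28.1% against 62.3% of all genes (median -0.30). Their largest differences were at HOXC8, from 2160 and 1364 bp to 384 and 1814 bp, and HOXC6, from 5500 and 3470 bp to 1280 and 3875 bp. At both genes the groups overlapped.

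Genes of constitutive cell functions had medians near that of all genes. DNA damage genes had 21 of 27 narrower (median -0.19), with XRCC5, a subunit of Ku, at 1949 and 2260 bp against 1187 and 1570 bp, and NBN, of the MRN complex, at 2081 and 2196 bp against 1581 and 1766 bp. Mitosis and replication genes had 21 of 34 (median -0.18), with E2F2 at 1736 and 1638 bp against 1027 and 1417 bp and the spindle checkpoint gene MAD2L1 at 2700 and 2922 bp against 1741 and 2357 bp. Cytoplasmic ribosomal protein genes had 27 of 40 (median -0.22), with RPL27 at 2037 and 2018 bp against 1417 and 1458 bp and RPL35 at 2722 and 2590 bp against 1478 and 2435 bp. These shares of 77.8%, 61.8% and 67.5% stand beside the 62.3% of all genes.

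NF-kappaB genes had 12 of 24 narrower (median -0.21). The largest change of the list was at IL6, an inflammatory cytokine, from 944 and 659 bp to 215 and 738 bp, where the groups overlapped. TRAF2, an adaptor of TNF receptors, came next without overlap, from 2654 and 2921 bp to 1187 and 2073 bp. Pancreatic lineage factors had 7 of 22 narrower, or 31.8% against 62.3% of all genes (median -0.32). RBPJL went from 1010 and 854 bp near its TSSs to 159 and 168 bp, and KLF4 from 2688 and 2297 bp to 889 and 2624 bp. Ductal epithelium markers had 4 of 7 (median -0.26), with KRT8 at 6576 and 5817 bp against 3900 and 5041 bp and KRT18 at 2865 and 2553 bp against 1780 and 2163 bp. Of the markers of other cell types, ITGAM, a leukocyte integrin, had 1315 and 1123 bp against 320 and 940 bp, APOA1 had 822 and 1123 bp against 577 and 841 bp, and CELA3A, an acinar elastase, was lost from 31 and 80 bp at the far edge of its window.

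The study showed a set of example genes, chosen by its authors on these samples, so they are no independent evidence of a direction. Of the 9, COL1A1, PAPLN and MMP17 were narrower without overlap. COL1A1, the collagen of mesenchymal matrix, had 2762 and 2305 bp in siControl+TGFb and 1422 and 1998 bp in siPHF13+TGFb. MMP17, a membrane metalloprotease, had 3889 and 3721 bp against 2381 and 3670 bp, and PAPLN, an extracellular matrix glycoprotein, had 1452 and 1470 bp against 981 and 1230 bp. The other 6, PHF13 among them, overlapped or touched. SNAI1, the EMT factor Snail, had 3059 and 2530 bp against 1371 and 2912 bp, ITGA2 had 2971 and 2769 bp against 1841 and 3089 bp, SOX9 had 3008 and 2739 bp against 2001 and 2947 bp, MMP2 had 2291 and 1709 bp against 1548 and 1829 bp, and PCDHB8 had 1089 and 1090 bp against 953 and 1291 bp. All 9 promoters thus carried the mark in all 4 libraries, and without siPHF13+TGFb replicate 1 the change of SNAI1, ITGA2 and SOX9 was above 0 (0.066, 0.11 and 0.038 on the log2 scale).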

How the data were processed

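The authors sequenced chromatin immunoprecipitated with an H3K4me3 antibody, trimmed reads with Trim Galore 0.4.1, aligned them to hg19 with Bowtie2 2.4.1, removed duplicates with Picard and called narrow peaks in each library against input with MACS2 2.2.7.1. The deposited lists give peak positions, a fold enrichment over input, which is a ratio, and the −log10 q-value, as written by the authors' peak caller. The lowest deposited −log10 q was 1.30, below the threshold stated in the methods. For siPHF13+TGFb replicate 1 the study lists more peaks than the deposited list holds, and the deposited list was used.

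Peaks were merged when they overlapped or touched, and present meant at least 1 bp. Positions were set against GENCODE 44 lifted to GRCh37, with protein-coding TSSs at 5 kb. A deeper or better enriched library gives more and wider peaks, so list length also measures the library. Groups were compared by exact two-sided permutation of the 4 libraries and, for width, by limma 3.58.1 in R 4.3.3 on the log2 bp of regions that every library covered, with no block. The limma call was tried on simulated widths with a uniform spread and a far larger shift than the median one here. The permutation code was checked on a known case only. The libraries share replicate numbers, which are not stated to mark a shared batch. Alternatives were equal list lengths or covered lengths, the 50% strongest peaks, a −log10 q of at least 3, 200 bp for presence, merging within 500 bp, 1 kb around TSSs, centring, 6 libraries in the fit, a replicate block and leaving out each library. Named regions were the 10 longest lost proximal, lost distal and gained regions and the 10 with the largest gap in log2 bp in each direction. Named list genes were the 2 most negative log2 changes of each list, those lost, and the study's examples, so the list ranking did not look for increases. Members, lists and rules were chosen with earlier results of these data known. H3K27ac and H3K27me3 lists and the untreated H3K4me3 lists served only to sort or describe regions. Inputs were not used here, and some items are not reported here. Python 3.11.15, NumPy 2.4.6, SciPy 1.17.1 and pysam 0.24.0 were used.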

Additional observations from a re-analysis of the deposited data

How the results depend on the processing

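Reducing the lists to the same number of peaks gave 786 lost and 277 gained regions and 57 lost and 15 gained genes. The same covered length gave 29 and 944 regions, a net of -915, 8 and 428 genes, a proximal share of lost regions of 17.2%, which was -47.9 percentage points from that of all regions, and 7702 narrower regions. Both reductions left the list of siPHF13+TGFb replicate 1 whole and cut only the others. The 50% strongest peaks gave 1342 lost regions, 39.5% proximal, 319 lost and 19 gained genes, 7540 narrower and 124 wider regions. Presence at 200 bp gave 35 gained regions and 0 gained genes, merging within 500 bp gave a proximal share of 15.6% and 116 wider regions, and 1 kb around TSSs gave 10.7%. Centring on library medians gave 3907 narrower and 5471 wider regions and a median width change of 0.033.

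Leaving out 1 library at a time gave 2767 to 8086 lost and 105 to 2107 gained regions, a proximal share of 20.6% to 24.9%, 14306 to 21305 narrower and 431 to 4255 wider regions, 142 to 505 lost and 2 to 42 gained genes, and 0 to 6365 narrower and 0 to 13 wider regions by limma, where only the fit without siPHF13+TGFb replicate 2 made calls. These counts rise partly by construction, since a group of 1 library meets the rules more easily.

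Over the same left-out libraries, the log2 differences that changed sign ran from -2.16 to 0.080 for HOXC8, -1.16 to 0.0044 for ING1, -1.46 to 0.18 for ING2, -0.64 to 0.11 for ITGA2, -1.48 to 0.079 for KLF4, -3.73 to 0.10 for MMP9, -1.02 to 0.066 for SNAI1, -0.52 to 0.038 for SOX9, -3.47 to 0.30 for TGIF1, -0.76 to 0.029 for the median of pancreatic lineage factors and -0.60 to 0.0095 for that of HOX genes. In each the highest value was without siPHF13+TGFb replicate 1. PCDHB8 ran from -0.19 to 0.24, and was -0.074 with equal numbers of peaks and with equal covered length and -0.20 with the 50% strongest peaks. Equal covered length gave PCGF2 0.46 and VGLL4 0.42, the 50% strongest peaks gave VGLL4 0.27 and TRAF2 0.041, equal numbers gave SOX9 0.10, and 1 kb around TSSs gave the median of ductal markers 0.036. The cause of these turns was not tested.

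With a replicate block limma again called 0 regions at an adjusted p of 0.05, and 845 narrower and 12 wider regions at an unadjusted p under 0.05. Same-numbered libraries did not deviate together (correlation -0.20), so the numbers were not taken as pairs. A crossed pairing, chosen after seeing the data, gave 0 adjusted calls and 1839 narrower and 20 wider unadjusted ones.

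Read depth is unknown, 2 libraries a group cannot reach an exact p below 0.333, and siPHF13+TGFb replicate 1 had the shortest list. Covered length could not be recomputed with lists of the same covered length.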
